A study of Mus musculus with 15 samples.

Results

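The primary cilium is a thin, antenna-like extension built on the mother centriole, and 36 genes that build it, load it or guard its base were followed here across 5 sorted cell populations of the adult mouse forebrain. The members were taken from the deposited count table by symbol: all intraflagellar transport (Ift), Bardet-Biedl syndrome (Bbs) and tectonic (Tctn1 to Tctn3) genes, plus Nphp4, Arl13b, Arl3, Arl6, Mks1, Cc2d2a, Rpgrip1l, Tmem67, Inpp5e, Tulp3 and Adcy3. They are 36 of 32735 genes, and all 36 were among the 16302 genes that passed the filter on low counts. In V-SVZ stem cells the primary cilium reaches into the ventricle, and cycling cells in general resorb it before mitosis. Proteins of the IFT-B complex carry cargo outward with a kinesin, those of IFT-A bring it back with a dynein, the BBSome loads membrane proteins onto these trains, and the transition zone at the base limits what enters.

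RNA was sequenced from cells of hGFAP::GFP mice, in which a human GFAP promoter drives GFP in astrocytes and neural stem cells. Males and females were pooled in every library, and no age is given in the sources used here. All 5 groups were GFP-positive, and each had 3 libraries. Sorting from the V-SVZ, the ventricular-subventricular zone that lines the lateral ventricle, gave 4 groups, all negative for CD24. GCEPB+ was positive for EGFR, PDGFRβ and CD133, and GCEPB- for EGFR and CD133 but not PDGFRβ. GCPB+ was positive for PDGFRβ and CD133 but not EGFR, and GPB+ for PDGFRβ alone of these 3 surface proteins. The CTX group held GFP-positive astrocytes of the cortex, with no other surface marker stated. EGFR marks activated stem cells and their dividing progeny, and the EGFR-negative V-SVZ groups are taken for quiescent stem cells and niche astrocytes.

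Total counts were 12466038 to 33665687 per library, so 3 counts correspond to 0.102 to 0.246 CPM (counts scaled to a fixed library total after TMM normalization). The members had between 14 (Nphp4) and 3876 (Cc2d2a) counts in a library. Summed levels of 6 proliferation genes (Mki67, Top2a, Ccna2, Mcm2, Mcm6 and Rrm2) were 1580 to 2290 CPM in GCEPB+, 3480 to 4030 in GCEPB-, 36.6 to 53.2 in GCPB+, 30.7 to 48.9 in GPB+ and 8.63 to 14.1 in CTX. Summed levels of 6 astrocyte genes were 8580 to 14400 CPM in GCEPB+, 3380 to 3740 in GCEPB-, 39500 to 47000 in GCPB+, 36500 to 41400 in GPB+ and 34800 to 38800 in CTX. The 29 ependymal and motile cilia genes found in the table summed to 155 to 217 CPM in GCEPB+ and 71.6 to 77.4 in GCEPB-. They summed to 262 to 296 CPM in GCPB+, 236 to 256 in GPB+ and 99.7 to 109 in CTX. Rsph9, Rarres2 and Dnaic1 were the highest of them in GCPB+, at means of 76.3, 64.2 and 52.7 CPM. These genes also had means of 24.9, 26.1 and 25.8 CPM in CTX, so the sums follow a few genes. The 4 defining ependymal markers (Foxj1, Rarres2, Tmem212 and Ccdc153) summed to 17.7 to 28.2 CPM in GCEPB+, 2.18 to 4.29 in GCEPB-, 59.3 to 79.8 in GCPB+, 48.3 to 68.0 in GPB+ and 22.8 to 33.5 in CTX. Tmem212 had no count in all 3 CTX libraries and Ccdc153 had none in 2 of them, while Rarres2 was at 23.7, 32.9 and 21.6 CPM there and Foxj1 at 1.93, 0.537 and 1.13 CPM. In bulk samples of this kind, fewer cells of a type and less RNA per cell cannot be told apart.

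Levels between genes were compared per transcript length, in the FPKM deposited by the authors. Arl3, the GTPase that releases lipidated cargo inside the cilium, was the highest member at a mean of 76.1 FPKM over 15 libraries, followed by Ift27, a small GTPase of IFT-B, at 59.9 FPKM. Their order turned in GCPB+ (Arl3 67.9 and Ift27 76.05 FPKM) and in CTX (Arl3 57.0 and Ift27 68.4 FPKM). Within IFT-B the lowest was Ift88, a core scaffold subunit, at 3.62 FPKM. Within IFT-A the order was Ift43 at 24.8, Ift122 at 11.2 and Ift140 at 7.16 FPKM. BBSome subunits lay close together, from 4.04 FPKM for Bbs9 to 10.3 FPKM for Bbs4, and the chaperonin-like Bbs10 and Bbs12, which help assemble the BBSome, had 3.18 and 3.85 FPKM. Transition zone genes ranged from 14.5 FPKM for Cc2d2a, which anchors the zone to the membrane, to 1.48 FPKM for Rpgrip1l and 0.562 FPKM for Nphp4, the lowest member. Adcy3, the adenylyl cyclase widely used as a marker of neuronal and astrocytic cilia, had 1.54 FPKM.

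**Figure D1:**
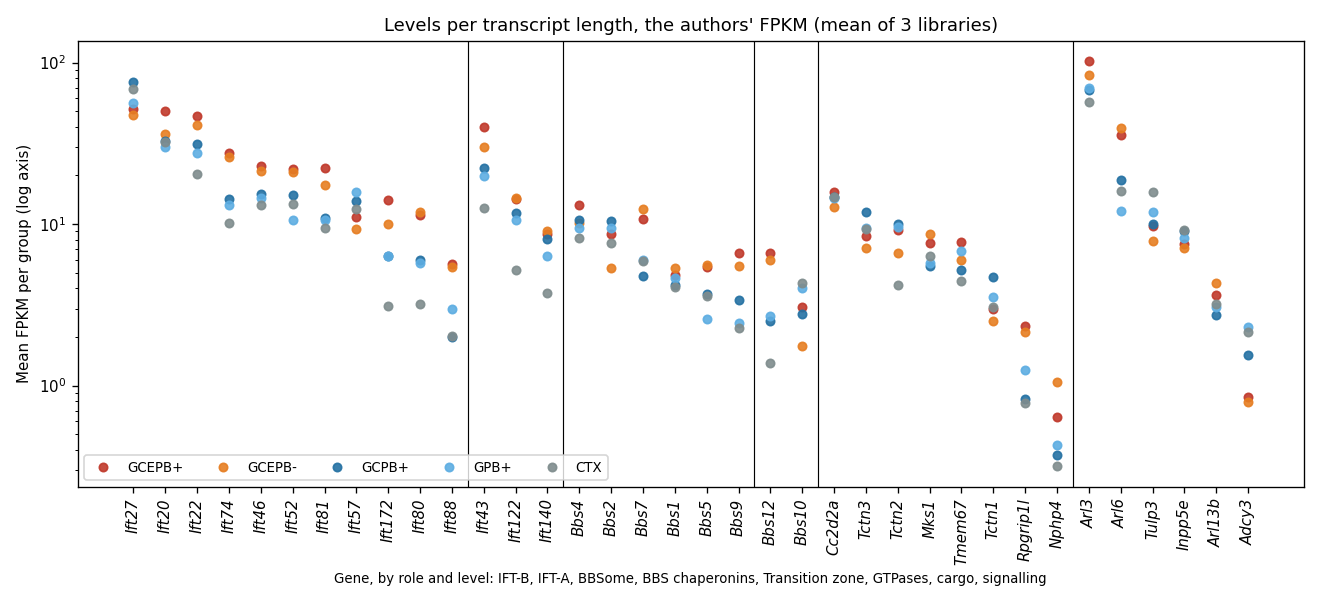
Mean FPKM of each member per group (y, log axis; 3 libraries per group), ordered by role and level. Arl3 and Ift27 were the highest members and Nphp4 the lowest, and Bbs12 had the widest ratio between group means.

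Of the 36 members, 23 differed among the 5 groups by edgeR's quasi-likelihood F test at an adjusted p under 0.05, or 63.9%, beside 54.8% of all genes tested. These were 9 of 11 IFT-B, 2 of 3 IFT-A, 3 of 6 BBSome and 4 of 8 transition zone genes, both chaperonin-like genes, and 3 of the other 6 (Arl6, Inpp5e and Tulp3). The 13 that did not pass were Adcy3, Arl13b, Arl3, Bbs1, Bbs4, Bbs5, Cc2d2a, Ift140, Ift20, Ift46, Mks1, Nphp4 and Tmem67. The ratio of the highest to the lowest group mean ran from 1.24 for Bbs1 to 4.14 for Bbs12, whose 3 GCEPB+ libraries alone spread over 33.8, 4.61 and 17.8 CPM. Most members had their highest mean in GCEPB+ (15, or 41.7%, beside 15.1% of all genes), GCEPB- (8, beside 32.8% of all genes) or GCPB+ (8, beside 13.6%). Their lowest mean was in CTX for 17 members, or 47.2%, beside 23.0% of all genes. Which group held the highest or lowest mean was not tested. Some peaks were near ties, such as Ift52 at 55.7 CPM in GCEPB+ and 53.7 in GCEPB-, and no member passed between these groups by edgeR.

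**Figure D2:**
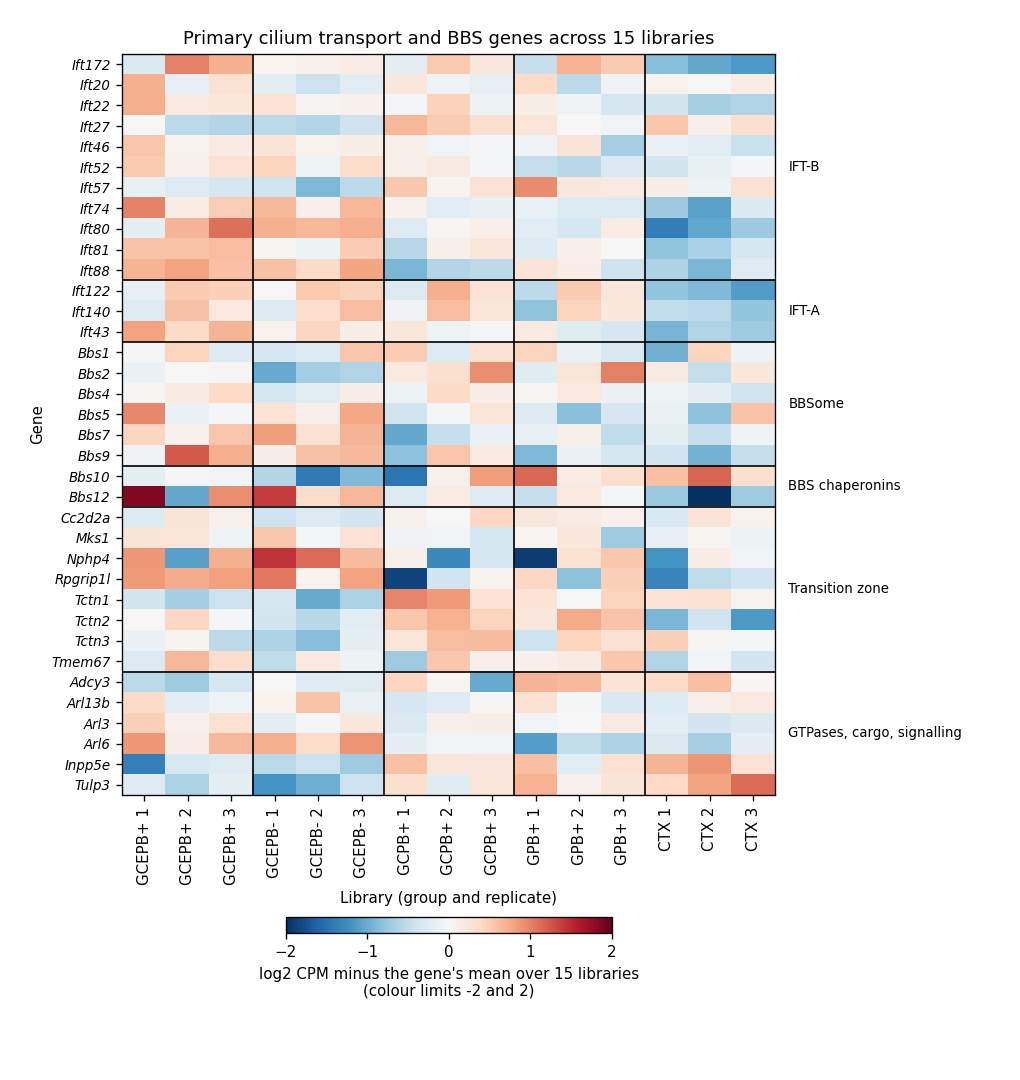
log2 CPM of each member (rows, by role) in each of the 15 libraries (columns), as the difference from the member's mean over all libraries, with colours clipped at -2 and 2. Tctn1 is low and Ift88 high in all 6 EGFR+ libraries, several IFT-B and IFT-A genes are low in the 3 CTX libraries, and members of the same role do not share 1 pattern.

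RFX transcription factors are known regulators of cilium genes, so promoters were searched for the letters GTTGCC, the core of their binding site, on both strands in the 300 bases from 250 before to 50 after the annotated start (RefSeq, GRCm38.p6). Promoter sequences were matched for 32 of the 36 members. The core stood in 14 of these 32 genes (43.8%), beside 14.1% of 27025 genes of all kinds in the same table. A spaced pair of looser half-sites, GTNNCC and GGNAAC with 0 to 3 bases between them, stood in 11 of 32 (34.4%), beside 2.68% of all genes. This pair can overlap the core and was chosen after the sequences had been searched. Adcy3, Bbs4 and Ift22 held the pair without the core. Of the promoters printed below, those of Bbs7, Tctn1 and Tctn2 hold it, and only the core is marked in them. The longer X-box consensus stood in 1 of 32, that of Tctn2, beside 1.1% of all genes. A match is a description and not a bound site. The 6 promoters below were picked for holding the core, shown in capitals, and for levels that differed between the populations. Core and change thus occur together here by choice, and the letters can be read beside the values that follow. Of the 14 members with the core, Arl13b, Bbs1, Bbs5, Ift140, Mks1 and Nphp4 did not differ among the groups. Ift22 differed without holding it, and Arl6, Bbs2, Ift74, Ift80, Inpp5e and Rpgrip1l differed and are not among the 14. Some members outside the 14 had no matched promoter. Ift88 (chr14:57423821-57424120, plus strand) has it beginning at base 22 of the transcript, Bbs7 (chr3:36613340-36613639, minus strand) 121 bases before the start, Ift27 (chr15:78174032-78174331, minus strand) 9 bases before it, and Tctn1 (chr5:122264411-122264710, minus strand) as a facing pair at bases 37 and 45. Ift172 (chr5:31291065-31291364, minus strand) has it at base 1 and Tctn2 (chr5:124598499-124598798, plus strand) at base 14.
Ift88: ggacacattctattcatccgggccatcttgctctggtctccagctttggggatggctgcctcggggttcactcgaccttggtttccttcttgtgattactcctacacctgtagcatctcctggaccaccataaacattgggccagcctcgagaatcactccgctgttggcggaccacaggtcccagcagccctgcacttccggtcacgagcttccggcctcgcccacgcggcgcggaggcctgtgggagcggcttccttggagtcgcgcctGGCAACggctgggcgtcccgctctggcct
Bbs7: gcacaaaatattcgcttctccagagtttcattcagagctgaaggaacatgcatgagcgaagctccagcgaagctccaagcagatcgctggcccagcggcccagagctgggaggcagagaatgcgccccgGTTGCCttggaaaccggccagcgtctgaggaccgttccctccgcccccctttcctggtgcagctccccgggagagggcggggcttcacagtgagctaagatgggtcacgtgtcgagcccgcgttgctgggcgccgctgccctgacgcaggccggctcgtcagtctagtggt
Ift27: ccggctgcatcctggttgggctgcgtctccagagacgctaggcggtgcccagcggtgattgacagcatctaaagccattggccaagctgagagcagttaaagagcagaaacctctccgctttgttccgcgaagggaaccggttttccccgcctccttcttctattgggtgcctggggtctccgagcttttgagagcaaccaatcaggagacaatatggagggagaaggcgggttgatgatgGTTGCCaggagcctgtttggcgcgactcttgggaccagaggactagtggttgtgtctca
Tctn1: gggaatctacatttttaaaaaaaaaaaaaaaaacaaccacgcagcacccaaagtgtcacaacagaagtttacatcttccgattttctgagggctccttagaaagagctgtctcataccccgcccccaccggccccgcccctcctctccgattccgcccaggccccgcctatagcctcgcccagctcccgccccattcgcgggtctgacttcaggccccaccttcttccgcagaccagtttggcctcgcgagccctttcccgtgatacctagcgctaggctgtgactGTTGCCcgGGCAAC
Ift172: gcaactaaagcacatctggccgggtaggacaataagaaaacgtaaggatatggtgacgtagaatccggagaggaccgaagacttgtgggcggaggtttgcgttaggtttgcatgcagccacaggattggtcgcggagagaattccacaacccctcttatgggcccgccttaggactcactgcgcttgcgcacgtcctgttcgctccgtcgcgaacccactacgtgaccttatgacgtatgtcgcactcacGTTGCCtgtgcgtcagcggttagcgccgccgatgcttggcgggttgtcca
Tctn2: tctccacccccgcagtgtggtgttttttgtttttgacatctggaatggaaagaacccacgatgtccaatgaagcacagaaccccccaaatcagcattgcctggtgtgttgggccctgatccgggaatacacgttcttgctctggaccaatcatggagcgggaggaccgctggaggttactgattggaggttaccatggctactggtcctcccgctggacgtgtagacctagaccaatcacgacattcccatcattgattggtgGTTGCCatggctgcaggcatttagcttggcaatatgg

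GCEPB+ and GCEPB- cells were each set against GCPB+ cells, which share CD133 and lack EGFR, to ask which cilium genes go with EGFR. GCEPB- cells also lack the PDGFRβ that GCPB+ cells carry. In GCEPB- against GCPB+, EGFR and PDGFRβ therefore cannot be told apart. The 2 comparisons share the 3 GCPB+ libraries, so their values stand side by side and are not independent. Among PDGFRβ-positive cells, GCEPB+ against GCPB+, 6 members rose (16.7%, beside 18.1% of all genes) and 3 fell (8.33%, beside 18.0%). The median log2 fold change was 0.25 over members and 0.11 over all genes. In GCEPB- against GCPB+, 5 members rose (13.9%, beside 23.9% of all genes) and 9 fell (25.0%, beside 24.9%), with medians of 0.01 over members and 0.06 over all genes. Shares this near the background are no result about the group as a whole, and the members are described singly. Markers of other cell types and states moved in the same comparisons. All 6 proliferation and all 6 neuroblast genes rose in both. Of 6 astrocyte genes, 5 fell in GCEPB+ and 6 in GCEPB-, and of 6 mature oligodendrocyte genes, 2 fell in GCEPB+ and 6 in GCEPB-. Of 27 ependymal and motile cilia genes, 4 rose and 4 fell in GCEPB+, and 1 rose and 7 fell in GCEPB-. Their median log2 fold change was 1.08 in GCEPB+ and -1.12 in GCEPB-, while their summed level was lower than in GCPB+ in both. Of 4 pericyte genes tested, 3 fell in GCEPB+ and 2 in GCEPB-. Summed neuroblast genes were 275 to 486 CPM in GCEPB+, 855 to 1130 in GCEPB- and 15.2 to 44.7 in GCPB+. Summed oligodendrocyte genes were 296 to 1080 CPM in GCEPB+, 124 to 177 in GCEPB- and 1250 to 1770 in GCPB+. The part of these markers in the cilium gene values was not tested.

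Among 8 transition zone genes, Tctn1 fell and Rpgrip1l rose in both comparisons. Tctn1, a tectonic of the membrane-gating complex whose promoter is printed above, measured 9.33, 7.62 and 9.05 CPM in GCEPB+, 9.59, 6.08 and 7.85 in GCEPB- and 24.0, 22.0 and 14.7 in GCPB+. No EGFR+ library reached the lowest GCPB+ library. The log2 fold changes of Tctn1 were -1.22 ± 0.28 in GCEPB+ (adjusted p = 0.00253) and -1.36 ± 0.28 in GCEPB- (adjusted p = 0.000662). Tctn3, another tectonic, measured 14.2, 12.02 and 19.1 CPM in GCEPB- and 25.7, 33.2 and 33.8 in GCPB+. Tctn2 and Tctn3 fell in GCEPB- against GCPB+, by 0.95 and 1.03 on the log2 scale (adjusted p = 0.00328 and 0.0056), as did the transition zone gene Cc2d2a, by 0.53. In GCEPB+ against GCPB+ the same 3 genes gave -0.42, -0.69 and -0.13 and did not pass. Rpgrip1l, which organises the transition zone, was higher in both EGFR+ groups than in GCPB+. It measured 20.0, 18.6 and 19.5 CPM in GCEPB+, 22.9, 11.6 and 19.4 in GCEPB- and 3.06, 8.44 and 11.7 in GCPB+. Its log2 fold changes were 1.33 ± 0.45 (adjusted p = 0.0293) and 1.22 ± 0.45 (adjusted p = 0.0331), and in GCEPB- 1 library overlapped GCPB+. The EGFR-negative GPB+ libraries of Rpgrip1l, at 14.7, 6.265 and 15.4 CPM, also overlapped GCEPB-. Mks1, Tmem67 and Nphp4 did not pass in either comparison.

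**Figure D3:**
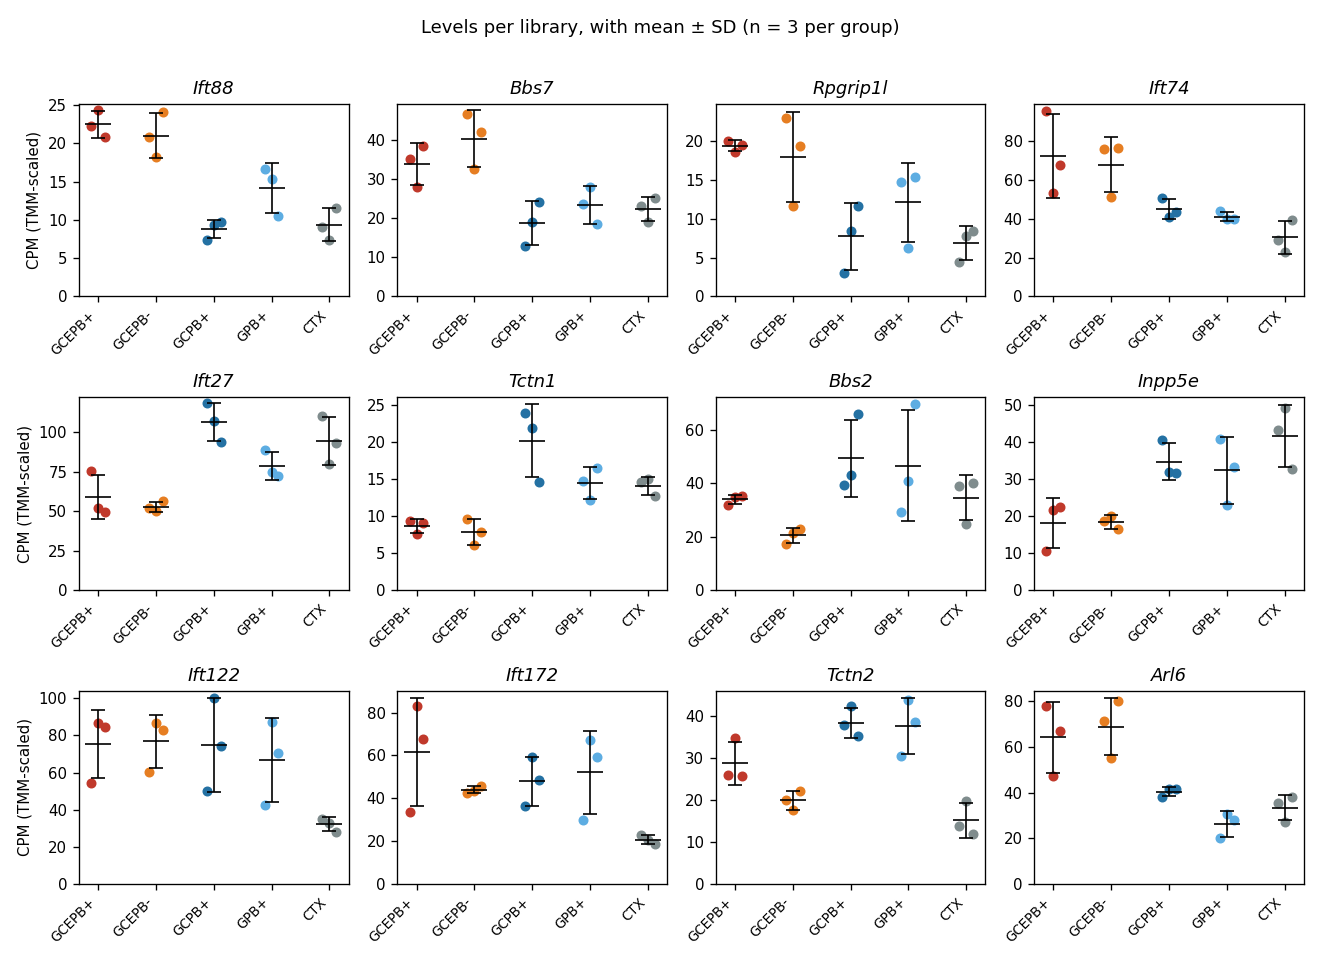
CPM of 12 members in each library (points) with the mean ± SD of 3 libraries (black) for each group. Tctn1 and Inpp5e are lower and Ift88, Ift74 and Arl6 higher in all 6 EGFR+ libraries than in all 9 others, and Ift122 and Ift172 are lowest in the 3 CTX libraries.

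IFT-B, the outbound train, had 11 members in the table, of which 3 rose and 1 fell in GCEPB+ against GCPB+, and 2 rose and 2 fell in GCEPB- against GCPB+. Ift88, whose loss in mice stops cilia from forming, measured 22.3, 24.3 and 20.9 CPM in GCEPB+, 20.8, 18.2 and 24.0 in GCEPB- and 7.41, 9.26 and 9.70 in GCPB+. The GPB+ libraries, at 16.6, 15.3 and 10.5 CPM, stood between these groups, and the EGFR+ libraries overlapped none of the other 9. The log2 fold changes of Ift88 were 1.35 ± 0.27 in GCEPB+ (adjusted p = 0.000851) and 1.26 ± 0.27 in GCEPB- (adjusted p = 0.000934). Ift74 and Ift81 together bind tubulin. Ift74 measured 95.7, 53.2 and 67.7 CPM in GCEPB+ and 50.85, 41.1 and 43.6 in GCPB+, with no overlap. Ift74 and Ift81 rose in GCEPB+ by 0.68 ± 0.25 and 0.63 ± 0.24 (adjusted p = 0.0402 and 0.0474). In GCEPB- they gave 0.59 and 0.21 (adjusted p = 0.0574 and 0.493) and did not pass. Ift74 did not overlap GCPB+ there either, and it passed in GCEPB- with the replicate number as a block (adjusted p = 0.0244). Ift80, also of IFT-B, measured 61.4, 59.5 and 61.8 CPM in GCEPB- and 31.4, 38.1 and 39.95 in GCPB+, with no overlap. It rose in GCEPB- by 0.74 ± 0.27 (adjusted p = 0.0331), and in GCEPB+ gave 0.66 (adjusted p = 0.0679).

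Ift27, the GTPase that links IFT-B to BBSome exit from the cilium, ran the other way. It measured 75.3, 52.1 and 49.8 CPM in GCEPB+, 51.8, 49.9 and 56.3 in GCEPB- and 118, 107 and 94.1 in GCPB+. The groups with and without EGFR did not overlap in these comparisons, but GCEPB+ replicate 1 lay above the lowest GPB+ libraries (89.1, 74.8 and 72.1 CPM). The log2 fold changes of Ift27 were -0.85 ± 0.19 in GCEPB+ (adjusted p = 0.00244) and -1.01 ± 0.19 in GCEPB- (adjusted p = 0.000348). Ift57 fell in GCEPB- by 0.89 on the log2 scale (adjusted p = 0.00397), and in GCEPB+ gave -0.55 (adjusted p = 0.0722, or 0.0328 with the replicate number as a block). The summed IFT-B level was 572 to 658 CPM in GCEPB+, 472 to 562 in GCEPB- and 522 to 555 in GCPB+. None of the 3 IFT-A genes passed in either comparison without the replicate block, with which Ift43 passed in GCEPB+ (adjusted p = 0.0493).

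Of 6 BBSome subunits, Bbs7 rose in both comparisons and Bbs2, which forms a complex with Bbs7 early in assembly, fell in GCEPB-. Bbs7 measured 35.1, 27.9 and 38.5 CPM in GCEPB+, 46.5, 32.4 and 41.9 in GCEPB- and 12.8, 19.0 and 24.1 in GCPB+. Its log2 fold changes were 0.86 ± 0.26 in GCEPB+ (adjusted p = 0.0161) and 1.11 ± 0.26 in GCEPB- (adjusted p = 0.00201). The GPB+ libraries of Bbs7, at 23.5, 28.0 and 18.4 CPM, reached the lowest GCEPB+ library. Bbs2 measured 17.2, 21.5 and 22.8 CPM in GCEPB- and 39.3, 43.0 and 66.0 in GCPB+, a log2 fold change of -1.27 ± 0.30 (adjusted p = 0.00202). Bbs2 in GCEPB+, at 31.9, 34.8 and 35.2 CPM, gave -0.54 against GCPB+ and did not pass. Arl6, the GTPase that recruits the BBSome to membranes, measured 78.1, 47.3 and 67.1 CPM in GCEPB+, 71.4, 55.2 and 80.1 in GCEPB- and 37.95, 41.5 and 41.5 in GCPB+. It rose by 0.67 ± 0.23 in GCEPB+ (adjusted p = 0.0306) and 0.77 ± 0.23 in GCEPB- (adjusted p = 0.0103). Bbs1, Bbs4, Bbs5, Bbs9, Bbs10 and Bbs12 did not pass in either comparison.

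The members that set the membrane content of the cilium included Inpp5e, the lipid phosphatase that keeps ciliary phosphoinositides apart from those of the cell membrane. Inpp5e measured 10.5, 21.6 and 22.5 CPM in GCEPB+, 18.6, 20.1 and 16.5 in GCEPB- and 40.5, 32.0 and 31.6 in GCPB+. Its log2 fold changes were -0.93 ± 0.29 in GCEPB+ (adjusted p = 0.0188) and -0.92 ± 0.29 in GCEPB- (adjusted p = 0.0154). The position of Inpp5e overlaps that of Pmpca, which had 92.9 CPM in GCEPB+, 93.4 in GCEPB- and 94.7 in GCPB+. The part of this overlap in the Inpp5e values was not tested. Tulp3, the adaptor that brings receptors such as Gpr161 into the cilium, fell in GCEPB- by 0.96 on the log2 scale (adjusted p = 0.00533), and in GCEPB+ gave -0.48. Arl3, Arl13b, which activates Arl3, and Adcy3 did not pass. In FPKM tested with limma on log2(FPKM + 1), Inpp5e gave -0.24 in GCEPB+ (adjusted p = 0.249) and -0.30 in GCEPB- (0.132), and Tulp3 gave -0.34 in GCEPB- (0.231). Cc2d2a there gave -0.18 (0.359) and Ift57 -0.53 (0.0539), so these calls rest on the counts. In that FPKM fit the split was 14 members higher and 2 lower in GCEPB+, and 12 higher and 5 lower in GCEPB-. Of all genes in that fit, 31.5% were higher and 15.8% lower in GCEPB+, and 36.9% higher and 22.7% lower in GCEPB-, while the median of all genes stood at 0.27 and 0.25, against 0.11 and 0.06 in counts.

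**Figure D4:**
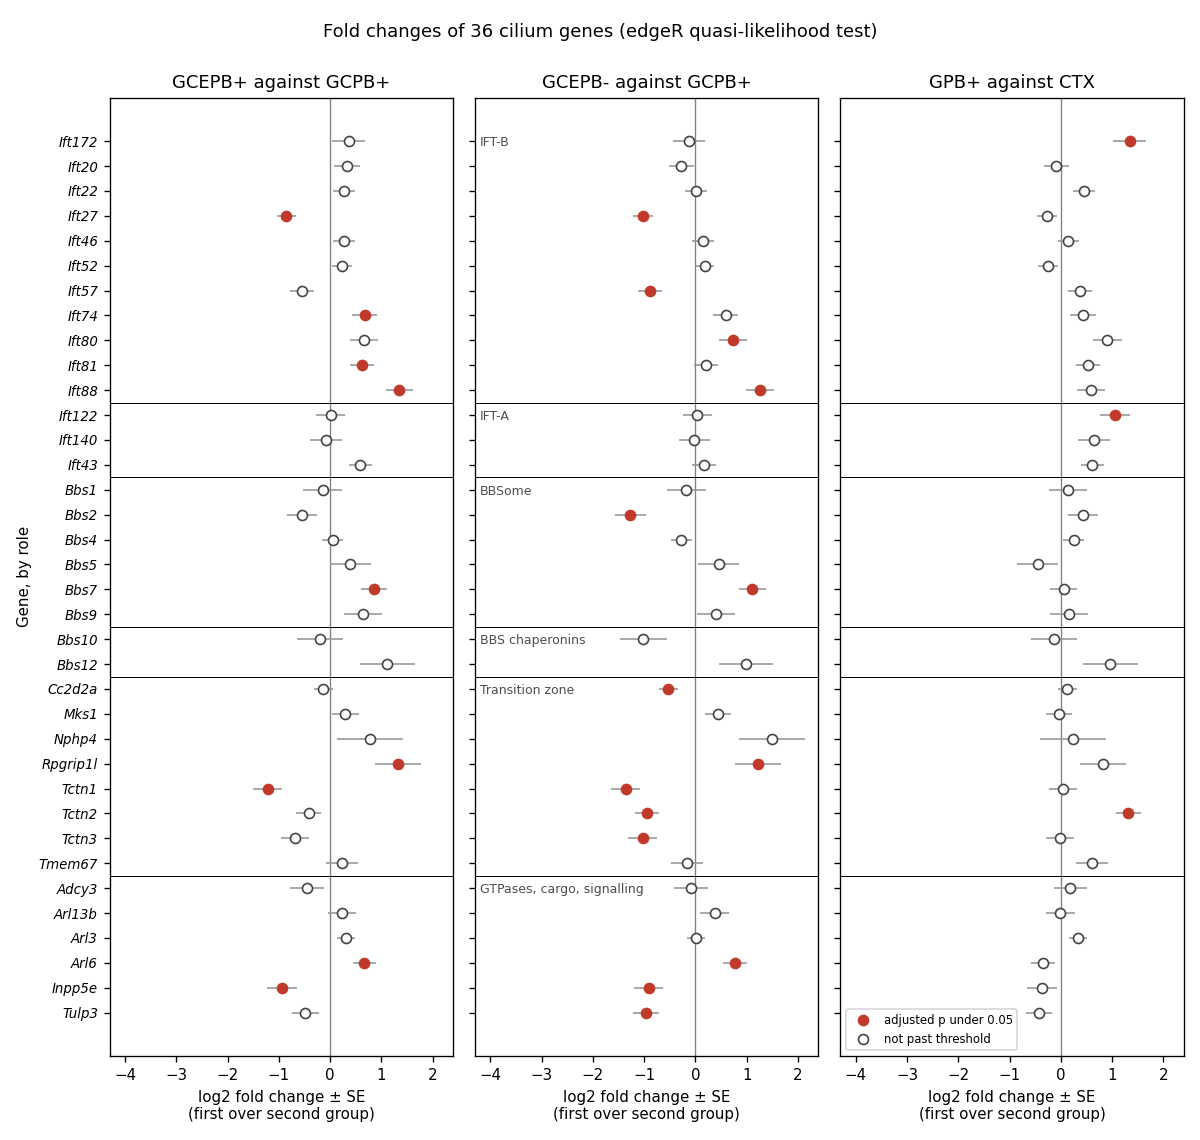
log2 fold change ± SE of the 36 members, by role (rows), in GCEPB+ against GCPB+, GCEPB- against GCPB+ and GPB+ against CTX. Filled points passed an adjusted p under 0.05 by edgeR: 6 up and 3 down in the left panel, 5 up and 9 down in the middle and 3 up in the right.

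Several calls against GCPB+ lay near the threshold and ended when a library was left out. The log2 fold changes of the calls so lost were 61.8% to 114% of those with all libraries in GCEPB+ and 68.3% to 110% in GCEPB-. The 6 rises in GCEPB+ became 3 without GCEPB+ replicate 1, 2 without GCPB+ replicate 2, and 1 without GCEPB+ replicate 3 or GCPB+ replicate 1. In GCEPB- the 5 rises became 3 without GCEPB- replicate 1 or GCPB+ replicate 1 or 2, and 2 without GCEPB- replicate 3. With DESeq2 on all libraries, the 3 falls in GCEPB+ became 5, beside 20.1% of all genes. With the replicate number as a block, 3 more members passed in GCEPB+ against GCPB+: Ift43 at 0.59 (adjusted p = 0.0493), Ift80 at 0.61 (adjusted p = 0.0379) and Ift57 at -0.53 (adjusted p = 0.0328). Calls of Ift88, Tctn1 and Ift27 held in both comparisons, and those of Bbs2, Tctn2, Tctn3, Bbs7, Ift57 and Tulp3 in GCEPB-, under every left-out library. The adjusted p of the other members named above reached at most 0.217 (Ift74, GCEPB+) when a library was left out. Over the 6 EGFR+ libraries and the other 9, which include CTX cells not sorted on EGFR, 6 members did not overlap (16.7%, beside 28.2% of all genes). Arl6, Ift74 and Ift88 were higher in all 6 EGFR+ libraries, and Ift57, Inpp5e and Tctn1 were lower.

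Other cilium genes, from lists of genes outside the members, were counted in the same fit, where 18.1% of all genes rose and 18.0% fell in GCEPB+, and 23.9% rose and 24.9% fell in GCEPB-. No list was tested as a whole, and the counts of the IFT and BBS genes with other names lay near these shares. Of 10 ciliary motor genes, 3 rose and none fell in GCEPB+ against GCPB+, and 4 rose and 1 fell in GCEPB-. Dync2h1, the heavy chain of the return motor, measured 121 ± 32.6 CPM in GCEPB+, 114 ± 15.3 in GCEPB- and 49.5 ± 19.3 in GCPB+. Of 18 centriole and basal body genes tested, 9 rose and 1 fell in GCEPB+, and 13 rose and 2 fell in GCEPB-. Ccp110, which caps the centriole and holds back cilium growth, measured 127 ± 51.7 CPM in GCEPB+, 190 ± 16.2 in GCEPB- and 40.1 ± 22.0 in GCPB+. Fuz, a planar polarity effector needed for cilium assembly, fell, with log2 fold changes of -1.65 ± 0.36 in GCEPB+ (adjusted p = 0.00156) and -3.14 ± 0.38 in GCEPB- (adjusted p = 3.02e-06). Of 9 genes linked to cilium disassembly, 6 rose and none fell in GCEPB+, and 6 rose and 2 fell in GCEPB-. These include mitotic kinases: Aurka measured 63.5 ± 2.17 CPM in GCEPB+, 126 ± 23.8 in GCEPB- and 3.75 ± 1.35 in GCPB+. Nedd9 of this list fell in GCEPB-, to 26.4 ± 6.18 CPM against 102 ± 36.9 in GCPB+. It did not pass in GCEPB+, at 70.3 ± 28.7 CPM. Pifo, the other that fell, was near the floor, at means of 0.022 CPM in GCEPB- and 0.962 in GCPB+. Of 15 transition zone genes outside the members, 4 rose and 2 fell in GCEPB+ and 4 rose and 3 fell in GCEPB-, with Cep290, a linker of microtubules and membrane, at 44.6 ± 13.1 CPM in GCEPB+, 48.5 ± 14.2 in GCEPB- and 13.1 ± 2.89 in GCPB+. Of 15 IFT and BBS genes with other names, 3 rose and 2 fell in GCEPB+ and 3 rose and 3 fell in GCEPB-, and Wdr35 of IFT-A measured 101 ± 26.3 CPM in GCEPB+, 113 ± 15.2 in GCEPB- and 45.4 ± 6.61 in GCPB+. Ttc30b of this list fell, to 14.3 ± 7.80 CPM in GCEPB+ and 10.9 ± 3.10 in GCEPB-, against 40.0 ± 8.62 in GCPB+. Of 10 ciliary receptor and hedgehog genes tested, 2 rose and 2 fell in GCEPB+ and 1 rose and 4 fell in GCEPB-, and Gpr161, a receptor that represses hedgehog signalling from the cilium, measured 6.16 ± 1.75 CPM in GCEPB+, 7.73 ± 1.69 in GCEPB- and 1.16 ± 0.938 in GCPB+. Gli3 of this list fell in GCEPB-, to 50.2 ± 5.51 CPM against 138 ± 17.6 in GCPB+, and did not pass in GCEPB+, at 99.7 ± 36.2 CPM. Of 6 RFX factors, Rfx7 rose and Rfx2 and Rfx4 fell in both comparisons, Rfx4 to 192 ± 60.2 CPM in GCEPB+ and 124 ± 2.20 in GCEPB-, against 368 ± 40.6 in GCPB+.

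GCEPB+ and GCEPB- share EGFR and CD133 and differ in PDGFRβ. None of the 36 members passed between them by edgeR or DESeq2, in either direction, beside 9.28% of all genes higher in GCEPB+ and 1.85% lower. At an unadjusted p under 0.05, 4 members were higher in GCEPB+ (11.1%, beside 16.2% of all genes) and none was lower (beside 7.24%). Bbs2 measured 31.9, 34.8 and 35.2 CPM in GCEPB+ and 17.2, 21.5 and 22.8 in GCEPB-, with no overlap and a log2 difference of 0.73 ± 0.30 (adjusted p = 0.142). Ift20, a Golgi-associated subunit of IFT-B, gave 0.60 ± 0.25 (adjusted p = 0.148), Tctn2 0.53 ± 0.24 (adjusted p = 0.189) and Cc2d2a 0.40 ± 0.19 (adjusted p = 0.207). The 95% interval of the log2 difference lay within -1 and 1 for 24 of 36 members, so for these a change of more than 2-fold lay outside the interval. In the same comparison, 7 of 27 ependymal genes tested, 6 of 6 astrocyte and 3 of 6 mature oligodendrocyte genes were higher in GCEPB+. Lower in GCEPB+ were 3 of 6 proliferation and 2 of 6 neuroblast genes. The part of these markers in the member values was not tested.

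GCPB+ against GPB+ asks what goes with CD133 among PDGFRβ-positive, EGFR-negative cells. None of the 36 members passed by edgeR, by DESeq2 or by limma on FPKM, beside 0.0245% of all genes higher and 0.00613% lower by edgeR. At an unadjusted p under 0.05, Arl6, Ift27 and Ift52 were higher in GCPB+ (8.33% of members, beside 3.85% of all genes) and Ift88 was lower (2.78%, beside 3.27%). Arl6 measured 37.95, 41.5 and 41.5 CPM in GCPB+ and 20.0, 30.7 and 27.9 in GPB+, with no overlap and a log2 difference of 0.62 ± 0.23 (adjusted p = 0.66). Ift88 measured 7.41, 9.26 and 9.70 CPM in GCPB+ and 16.6, 15.3 and 10.5 in GPB+, a log2 difference of -0.68 ± 0.27 (adjusted p = 0.663). The 95% interval lay within -1 and 1 for 26 of 36 members, with a median half-width of 0.57.

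GPB+ against CTX compares the V-SVZ cells that carry PDGFRβ alone with cortical astrocytes, which were not sorted on these surface proteins. Ift122, Ift172 and Tctn2 rose (8.33% of members, beside 4.04% of all genes) and no member fell by edgeR or DESeq2 (beside 2.70% of all genes), nor was any lower at an unadjusted p under 0.05 (beside 9.18% of all genes). Over members the median log2 fold change was 0.22, beside 0.00 over all genes, and 25 of 36 values were above 0. Tctn2 measured 30.5, 43.9 and 38.6 CPM in GPB+ and 13.8, 19.7 and 11.8 in CTX, with no overlap and a log2 fold change of 1.32 ± 0.24 (adjusted p = 0.00278). Ift172, a large peripheral subunit of IFT-B, measured 29.8, 67.0 and 59.2 CPM in GPB+ and 22.8, 20.2 and 18.5 in CTX, a log2 fold change of 1.34 ± 0.32 (adjusted p = 0.0181). Ift122, a core subunit of IFT-A, measured 42.2, 87.1 and 70.6 CPM in GPB+ and 35.1, 33.0 and 27.9 in CTX, a log2 fold change of 1.06 ± 0.29 (adjusted p = 0.0375). In both Ift genes GPB+ replicate 1 lay nearest to CTX.

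The Tctn2 call held under every alternative, with adjusted p at most 0.0235. That of Ift122 ended without GPB+ replicate 2 (adjusted p = 0.159) or 3 (0.0933) and without CTX replicate 1 (0.0831), 2 (0.0969) or 3 (0.144), and with limma on log2(FPKM + 1) (0.0717). That of Ift172 ended without the same libraries, at adjusted p = 0.0812, 0.0618, 0.0504, 0.0656 and 0.0817. With any 1 of these 5 libraries left out, 1 member passed.

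Beyond GPB+, 6 members stood higher in all 12 V-SVZ libraries than in all 3 CTX libraries: Ift122, Ift172, Ift22, Ift43, Ift74 and Ift80 (16.7%, beside 3.38% of all genes), and no member stood lower in all 12 (beside 5.18%). All 6 are subunits of the IFT trains, but the rest of the 11 IFT-B and 3 IFT-A members did not stand apart in this way. In GPB+ against CTX, Ift20, Ift27 and Ift52 gave log2 fold changes of -0.09, -0.27 and -0.26 and did not pass. The other IFT members gave positive values there. Ift43, of IFT-A, ranged from 16.5 to 36.6 CPM over the 12 V-SVZ libraries, against 11.01, 13.8 and 12.8 in CTX. Ift80 ranged from 29.6 to 80.4 CPM there, against 14.3, 18.1 and 22.5 in CTX. The gap was narrow for Ift74 (lowest V-SVZ library 39.67 CPM, highest CTX library 39.4) and for Ift22 (29.69 and 29.04 CPM). Of the 6, only Ift122 and Ift172 passed in GPB+ against CTX by edgeR without the replicate block. The summed level of the 3 IFT-A genes was 131 to 186 CPM in GCEPB+, 122 to 179 in GCEPB-, 120 to 193 in GCPB+ and 93.1 to 170 in GPB+, against 68.2 to 79.9 in CTX. The summed level of the 6 BBSome genes was 147 to 165 CPM in GCEPB+, 128 to 162 in GCEPB-, 120 to 173 in GCPB+ and 123 to 151 in GPB+, against 107 to 128 in CTX. GCEPB+ stood above every CTX library, GCPB+ and GPB+ overlapped CTX, and the lowest GCEPB- and the highest CTX library were both at 128 CPM. Beside these results, 8 of 27 ependymal and motile cilia genes tested also rose in GPB+ against CTX, as did 5 of 6 neuroblast and 4 of 6 proliferation genes, and their part in these values was not tested. Of genes outside the members, Wdr19 of IFT-A measured 31.5 ± 11.5 CPM in GPB+ and 14.3 ± 1.34 in CTX (log2 fold change 1.14 ± 0.32, adjusted p = 0.0426), and Ahi1, a transition zone gene, 74.0 ± 11.6 CPM in GPB+ and 35.5 ± 5.85 in CTX. Rfx2, a factor known to act on cilium genes, measured 50.8 ± 12.8 CPM in GPB+ and 18.9 ± 3.40 in CTX (log2 fold change 1.43 ± 0.26, adjusted p = 0.00253).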

How the data were processed

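Members and gene lists were chosen with earlier results of these data known; 2 further genes that the symbol rule matches are not reported here. Per the labels' protocols, sorted cells' RNA was amplified from poly(A) tails with an ultra-low-input kit and sequenced as paired ends; strand was not described, so overlapping genes cannot be told apart. The authors deposited raw counts per gene symbol and FPKM. The submitters' processing notes name cutadapt, TopHat2 2.1, Cufflinks and HTSeq with mm10; which tool made which file, the annotation and the treatment of multi-mapping reads are not given in the sources used here. In the FPKM table the symbol and position headers are exchanged, and starts were made 1-based. The 28 rows naming no gene (0.184% to 0.323% of counts) were left out.

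All 15 libraries were fitted together in edgeR 4.0.16 (R 4.3.3; TMM, filterByExpr, quasi-likelihood test, 5 groups, no covariate), with Benjamini-Hochberg adjustment over 16302 genes and a threshold of 0.05. The SE of a log2 fold change is its size over the square root of F. Alternatives used DESeq2 1.42.0 and limma 3.58.1, with limma on the deposited FPKM as log2(FPKM + 1) or log2(FPKM + 0.1), which understates changes of low genes. The scripts were tested on simulated data. For each comparison, library values are given for up to 4 members that rose and 4 that fell by size of change, if past the threshold, without overlap and at 5 CPM or more in the higher group. The highest and lowest member of each role by FPKM, and up to 3 genes per other cilium list, were also named. Library values outside this rule (Rpgrip1l and Inpp5e in GCEPB-, Arl6 and Bbs2 in GCEPB+, Bbs2 in GCEPB+ against GCEPB-, Arl6 and Ift88 in GCPB+ against GPB+, Bbs12 in GCEPB+, Ift27, Ift88, Bbs7 and Rpgrip1l in GPB+, ranges of Ift43 and Ift80, and the nearest libraries of Ift22 and Ift74) were added after they were seen. Means of Nedd9, Pifo, Pmpca, Rsph9, Rarres2 and Dnaic1 were added likewise.

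Whether replicates are separate groups of animals is not stated, so p-values cover the spread between these libraries only, part of which may be technical. Replicates all differed beyond counting noise (chi-square per gene 26.7 to 104). Deviations from the group means correlated across genes between libraries of the same number, at 0.271, 0.173 and 0.267 for GCEPB+ against GCPB+ and at 0.22, 0.212 and 0.285 for GCPB+ against GPB+. Replicate numbers were therefore read as possible pairs there, though no label states this. In GCEPB- against GCPB+ the same-number values were 0.0629, 0.0335 and 0.227, and in GPB+ against CTX 0.0784, 0.0943 and 0.25. Libraries of unlike number reached 0.104 and 0.146 in these comparisons, so pairing is less clear there. The values reported come from the fit without the block, and the blocked counts, fitted over all groups, are an alternative.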

Additional observations from a re-analysis of the deposited data

How the results depend on the processing

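No call reversed its direction: over 26 calls of a member in a comparison, 231 of 260 values under other settings and 106 of 156 with a library left out stayed past the threshold. For GCEPB+ against GCPB+, the 6 rises became 3 with no filter on low counts, 2 in a fit of the 2 groups only, 14 and 14 with limma on log2(FPKM + 1) and log2(FPKM + 0.1), and 12 without a filter on FPKM; leaving out a library gave 1 to 6. The 3 falls became 5 with DESeq2 and were 2 to 3 with a library left out. For GCEPB- against GCPB+, the 5 rises became 12, 10 and 9 and the 9 falls became 5, 5 and 5 in the same 3 FPKM fits; leaving out a library gave 2 to 5 rises and 7 to 9 falls. For GPB+ against CTX, the 3 rises were 1 to 3 with a library left out. The 23 members differing among the 5 groups were 18 to 24 with a library left out. The causes of these shifts were not tested; the FPKM fits also moved the median of all genes. With the replicate number as a block, 8 members rose and 4 fell in GCEPB+ against GCPB+, 6 and 9 in GCEPB- against GCPB+, 4 and 0 in GPB+ against CTX, 0 and 0 in the other two comparisons, and 24 differed among the 5 groups; the block ended no member's call. With 3 libraries per group, the median half-width of the 95% interval was 0.565 to 0.576 on the log2 scale; the part of depth in it was not tested.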

Other observations

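Replicate 1 had the lowest level of its group in 4 of 4 V-SVZ groups for 6 members, Bbs2, Bbs9, Ift122, Ift140, Ift172 and Tmem67 (16.7% of members, beside 4.58% of all genes), and the highest in 4 of 4 for Ift20 and Ift57 (5.56%, beside 4.17%). Ift140, a core subunit of IFT-A, measured 39.7 CPM in GCEPB+ replicate 1 beside 71.7 and 54.2 in the other two, and 27.2 CPM in GPB+ replicate 1 beside 65.0 and 55.1. In CTX, replicate 1 was the highest for Ift140, at 33.8 CPM beside 32.9 and 27.5. These members were chosen for this pattern after their values were seen.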
